A study of Mus musculus with 21 samples.

Results

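The cholesterol synthesis genes Hmgcs1, Sqle, Insig1, Idi1, Fdft1, Lss and Srebf2 were followed through 7 groups of mouse embryonic fibroblasts (MEFs). Their rows were taken from the deposited gene table by symbol, so they are 7 of 24454 genes, and all 7 were among the 13719 genes with enough counts to be tested. Messenger RNA was sequenced in 21 libraries, 3 per group, which are labelled as biological replicates. The study asked how loss of RTEL1, a DNA helicase that unwinds G-quadruplexes (G4-DNA) and telomeric loops, alters transcription, and whether a G4-stabilizing ligand has a similar effect.

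All cells carried a floxed gene. Rtel1f/f MEFs were infected with an adenovirus that expresses GFP (+GFP, the control) or Cre (+Cre, which deletes the floxed Rtel1 alleles), and the series description gives RNA collection at 96 h after infection. A further group of GFP-infected Rtel1f/f cells received 10 uM TMPyP4, a porphyrin that stabilizes G4-DNA, for 48 h before collection (+GFP +TMPyP4). The RTEL1 C1252A/C1255A groups were Rtel1f/f cells transduced with this RTEL1 mutant, carried by a pBabe retroviral vector according to the methods of the study, and were infected with GFP or Cre virus, so that their +Cre cells still held the mutant protein. The other groups were Trf1f/f MEFs, floxed for the shelterin gene Terf1, with GFP or Cre virus. Every +Cre and +GFP cell had thus been infected, and no uninfected cells were sequenced among these 21 libraries.

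Animal cells make cholesterol from acetyl-CoA through mevalonate, farnesyl diphosphate, squalene and lanosterol. When sterols in the endoplasmic reticulum fall, SCAP escorts the transcription factor SREBP-2, the product of Srebf2, to the Golgi, where the proteases encoded by Mbtps1 and Mbtps2 release its active part. Active SREBP-2 binds sterol regulatory elements and switches on nearly the whole pathway together with Insig1, whose product holds SCAP in the endoplasmic reticulum and so closes the loop. Fibroblasts grown in serum take up cholesterol as well as making it, and the labels and the methods of the study differ in the serum content they give for these cultures.

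Promoters of 4 of the genes are shown because they place the known elements of this programme beside the genes that behaved differently below. Hmgcs1 is a classical SREBP-2 target, Idi1 had the widest range of levels, Insig1 was the gene called after TMPyP4, and Srebf2 encodes the transcription factor itself. Each line gives the 250 bases before the gene's start on the + strand of GRCm38.p6, from RefSeq. Capitals mark the letters TCACNCCA of the sterol regulatory element and the letters CCAAT of the CCAAT box, bound by NF-Y, on either strand (ATTGG is CCAAT read on the other strand).
Hmgcs1: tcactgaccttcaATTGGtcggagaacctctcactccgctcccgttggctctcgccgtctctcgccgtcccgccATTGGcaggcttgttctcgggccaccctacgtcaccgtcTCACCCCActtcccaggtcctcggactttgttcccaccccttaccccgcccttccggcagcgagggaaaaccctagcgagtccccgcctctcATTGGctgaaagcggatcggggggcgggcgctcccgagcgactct
Insig1: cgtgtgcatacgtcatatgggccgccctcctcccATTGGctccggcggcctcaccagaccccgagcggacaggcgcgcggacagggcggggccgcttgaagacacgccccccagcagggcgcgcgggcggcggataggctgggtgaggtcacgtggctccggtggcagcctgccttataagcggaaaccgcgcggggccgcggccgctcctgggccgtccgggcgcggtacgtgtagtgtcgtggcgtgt
Idi1: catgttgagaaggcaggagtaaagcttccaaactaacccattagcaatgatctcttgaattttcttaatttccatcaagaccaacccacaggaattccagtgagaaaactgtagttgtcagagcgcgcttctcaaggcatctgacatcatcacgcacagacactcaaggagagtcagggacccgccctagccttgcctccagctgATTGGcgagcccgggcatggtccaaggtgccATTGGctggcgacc
Srebf2: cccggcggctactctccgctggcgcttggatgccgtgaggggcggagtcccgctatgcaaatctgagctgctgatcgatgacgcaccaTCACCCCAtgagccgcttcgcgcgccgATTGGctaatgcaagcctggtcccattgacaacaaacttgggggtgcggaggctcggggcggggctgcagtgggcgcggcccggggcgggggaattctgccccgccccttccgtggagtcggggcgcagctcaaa
The windows lie at chr13:119690101-119690350 (Hmgcs1), chr5:28071162-28071411 (Insig1), chr13:8885356-8885605 (Idi1) and chr15:82147019-82147268 (Srebf2).

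Of the 7 genes, 5 had a promoter window of 300 bases (250 before and 50 after the start) in the reference table, and these were searched on both strands. The element TCACNCCAC was in 1 of the 5 windows, that of Hmgcs1 at 137 to 129 bases before the start, and in 1.242% of all 32851 windows. Its first 8 letters, TCACNCCA, a form chosen after the windows had been read, were in 2 of the 5, Hmgcs1 and Srebf2 (162 to 155 bases before the start), and in 4.362% of all windows. Any match to the longer form is also a match to the shorter one. CCAAT was in 5 of 5 windows against 37.41% of all, and the GC box GGGCGG, a site for SP1, was in 5 of 5 against 35.66%. A G4 motif (4 runs of at least 3 guanines, with loops of 1 to 7 bases) was in 1 of the 5 windows on either strand, that of Hmgcs1 on the antisense strand at 105 to 87 bases before the start, against 18.6% of all windows. On the sense strand it was in 0 of 5, against 10.48% of all. A match is only a run of letters, and the absence of a match in Idi1 and Insig1 covers this window alone.

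The libraries held 32069888 to 51938593 counts each. The targeted genes went with the labels. Rtel1 fell from 59.1 to 66.2 CPM (counts scaled to a common library size) in Rtel1f/f +GFP to 26.8 to 31.9 in +Cre, was 253 to 338 in all 6 RTEL1 C1252A/C1255A libraries, and Terf1 fell from 27.9 to 30.3 in Trf1f/f +GFP to at most 0.110 in Trf1f/f +Cre. The fibroblast genes Col1a1, Col1a2 and Vim were high in every library (at least 585, 1486 and 1290 CPM), and of 8 markers of other cell types 4 (Ptprc, Adgre1, Alb and Pecam1, of blood cells, macrophages, hepatocytes and endothelium) were at 0 or at most 0.138 CPM. The others were detected at low levels, endothelial Cdh5 at 0 to 0.353 CPM, epithelial Epcam at 0.119 to 0.892 and Cdh1 at 0.0466 to 1.60, and Cd68, a lysosomal protein abundant in macrophages, at 1.05 to 6.38 CPM, and their part in the results was not tested. Thy1, another fibroblast marker, was 222 to 269 CPM in the 6 Trf1f/f libraries and 0.0200 to 0.490 CPM in the 15 Rtel1f/f libraries. In a principal component analysis the first component, 71.9% of the variance, separated Trf1f/f from Rtel1f/f cells, and the second, 13.1%, placed the 3 Rtel1f/f +GFP libraries (-74.9 to -56.3) apart from all other Rtel1f/f libraries (-29.7 to 46.5). Every comparison that uses Rtel1f/f +GFP rests on these 3 libraries.

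**Figure D1:**
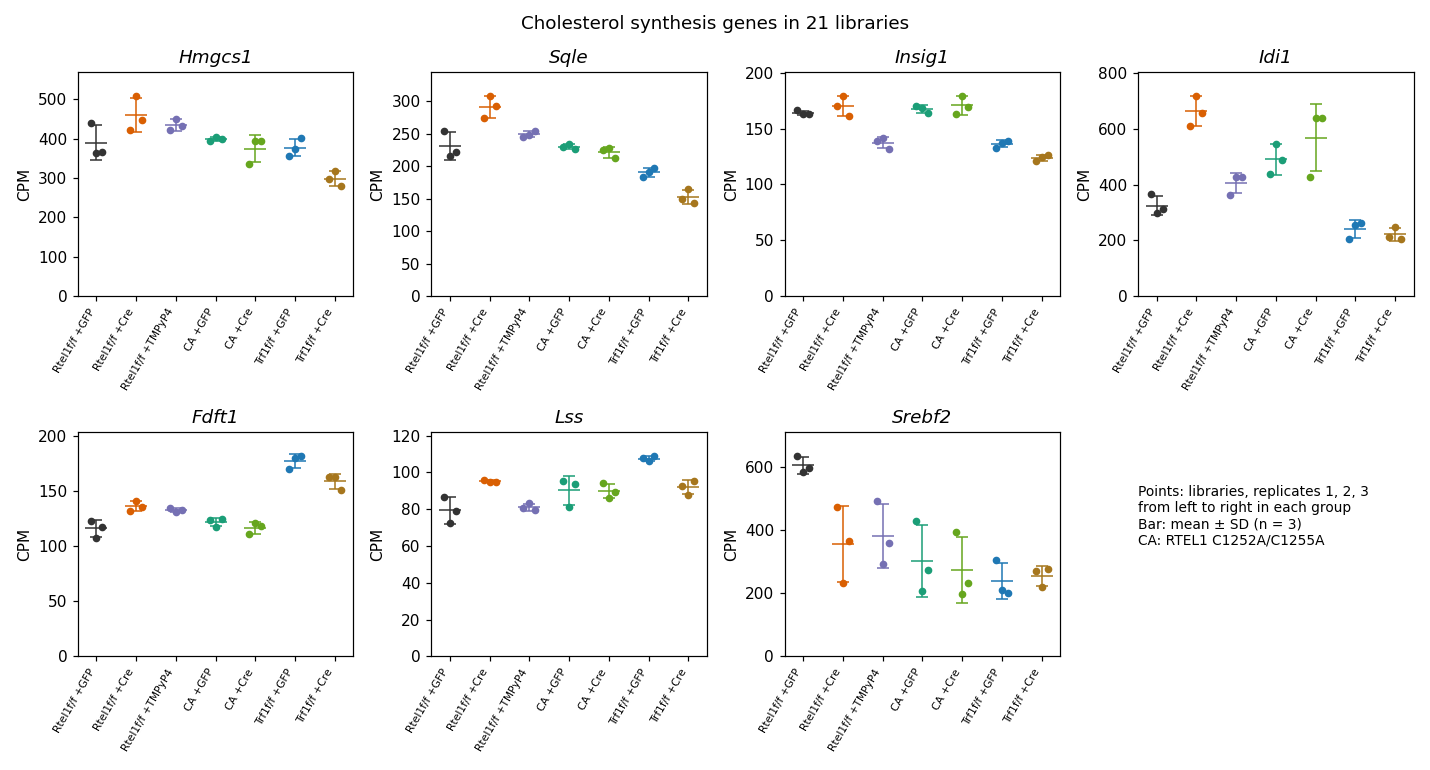
Level of the 7 genes in CPM (counts scaled to a common library size, y axis, from 0) in the 7 groups (x axis), with each library as a point and the mean ± SD of 3 libraries as bars. Idi1 was highest in Rtel1f/f +Cre (611 to 718 CPM), and Srebf2 was highest in the 3 Rtel1f/f +GFP libraries (586 to 636 CPM).

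Corrected for transcript length (TPM, the authors' estimate), Idi1 was the most abundant of the 7 transcripts, with a mean of 272 TPM over the 21 libraries and a range of 147 to 473. Hmgcs1 followed with 209, Sqle with 156, Srebf2 with 143, Insig1 with 111, Fdft1 with 70.8 and Lss with 26.7 TPM. All other levels below are CPM, which compare a gene only with itself.

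After deletion of Rtel1, Idi1 showed the largest change of the 7 genes, and Sqle, Fdft1 and Lss rose by less. Idi1 encodes isopentenyl-diphosphate isomerase, which makes the dimethylallyl unit that starts isoprenoid chains. Its level was 365, 297 and 313 CPM in Rtel1f/f +GFP replicates 1, 2 and 3, and 611, 718 and 658 CPM in Rtel1f/f +Cre. The libraries of the groups were far apart, with a log2 fold change of 1.03 ± 0.14 (SE), a 2.04-fold rise, and an adjusted p of 9.5e-06 (quasi-likelihood test of edgeR, Benjamini-Hochberg adjustment over all genes tested, n = 3 libraries per group). Every call below is from this test, with 0.01 as the highest adjusted p, which is the threshold of the study. In these bulk samples, more cells with a transcript and more transcript per cell cannot be told apart.

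Squalene epoxidase, Sqle, which catalyses the first oxygen-requiring step of the sterol branch, was 255, 215 and 222 CPM in +GFP and 274, 308 and 292 CPM in +Cre. All 3 +Cre libraries were above all 3 +GFP libraries, and the log2 fold change was 0.34 ± 0.07 (adjusted p = 3.7e-04). Squalene synthase, Fdft1, which joins farnesyl units to squalene, was 123, 108 and 118 CPM in +GFP and 132, 141 and 135 CPM in +Cre, a log2 fold change of 0.23 ± 0.06 (adjusted p = 0.00256). Lanosterol synthase, Lss, which closes the sterol rings, was 86.7, 72.3 and 78.8 CPM in +GFP and 95.9, 94.7 and 94.8 CPM in +Cre, a log2 fold change of 0.26 ± 0.07 (adjusted p = 0.00322). For both genes the groups did not overlap. Fdft1 was not called without +Cre replicate 2 or +GFP replicate 2 or 3 (adjusted p = 0.027, 0.0315 and 0.0107), nor Lss without +Cre replicate 1 or +GFP replicate 2 (adjusted p = 0.0104 and 0.0171). The rises of Sqle, Fdft1 and Lss were smaller than the median absolute log2 fold change over all genes tested, 0.39.

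Hmgcs1, the cytosolic HMG-CoA synthase that opens the mevalonate branch, was 440, 363 and 366 CPM in +GFP and 423, 509 and 449 CPM in +Cre. Replicate 1 of +GFP lay above replicate 1 of +Cre, and its log2 fold change, 0.24 ± 0.09, missed the threshold (adjusted p = 0.0267). Without +GFP replicate 1 it was 0.34 and called (adjusted p = 0.0041). Insig1 was 166, 163 and 164 CPM in +GFP and 170, 179 and 161 CPM in +Cre. Its groups overlapped, with a log2 fold change of 0.049 and a 95% interval of -0.063 to 0.16.

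Srebf2, which encodes the transcription factor itself, was 636, 586 and 597 CPM in +GFP and 475, 232 and 365 CPM in +Cre. Every +Cre library was below every +GFP library, but the +Cre libraries lay further apart from each other than those of the other 6 genes. Its log2 fold change, -0.76 ± 0.31, missed the threshold (adjusted p = 0.0453).

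After Rtel1 deletion 4 of the 7 genes were thus called higher and 0 lower, while 43.0% of all genes tested were called, 22.0% higher and the others lower. The median log2 fold change of the 7 was 0.24, against -0.034 over all genes. The count was 1, Idi1, when only these 6 libraries were fitted, and 2 without +GFP replicate 2.

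**Figure D2:**
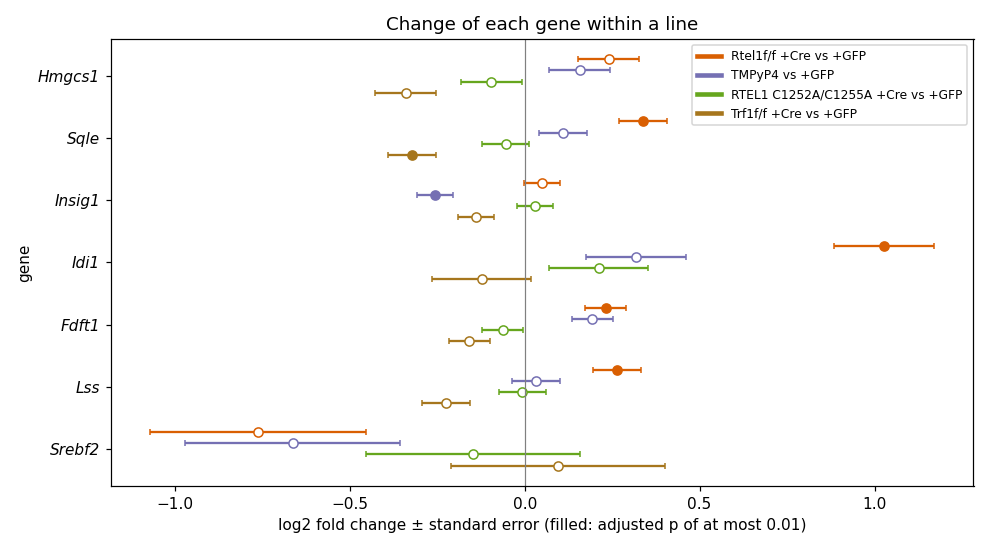
Log2 fold change ± standard error (x axis) of each of the 7 genes (y axis) in the comparisons within a line, with filled points at an adjusted p of at most 0.01. Idi1 in Rtel1f/f +Cre stands furthest to the right (1.03), and the Trf1f/f values of 6 of the 7 genes lie left of 0.

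The other enzymes of the pathway were read from a list of 13 (Acat2, Mvk, Pmvk, Mvd, Fdps, Cyp51, Tm7sf2, Msmo1, Nsdhl, Hsd17b7, Ebp, Sc5d and Dhcr7). In Rtel1f/f +Cre against +GFP, 6 of the 13 were called higher and 0 lower, against 43.0% of all genes called, 22.0% higher and the others lower. The largest rises were in enzymes that turn lanosterol into cholesterol. The C4-methylsterol oxidase Msmo1 went from a mean of 155 to 263 CPM (log2 fold change 0.76 ± 0.14, adjusted p = 1.7e-04), and its partner Nsdhl changed by 0.67 ± 0.11. Hsd17b7, which completes the same demethylation, changed by 0.63 ± 0.11 and the desaturase Sc5d by 0.46 ± 0.06. The remaining genes called, Fdps (0.40 ± 0.12), which makes farnesyl diphosphate, and Acat2 (0.36 ± 0.05), the acetoacetyl-CoA thiolase, act before the sterol branch. With the 5 enzymes Hmgcs1, Idi1, Fdft1, Sqle and Lss, 10 of 18 enzymes rose and 0 fell, and 14 of 18 had a log2 fold change above 0. Among the enzymes that were not called, Cyp51 (0.062) and Dhcr7 (-0.016) had log2 fold changes close to 0. Fdps was not called without +Cre replicate 2 or 3 or +GFP replicate 2 or 3 (adjusted p = 0.0235 to 0.0773). Nor was it called with upper-quartile factors or with only the groups compared (edgeR's quasi-likelihood test, adjusted p = 0.0142 and 0.0306). Fdps, Acat2, Cyp51 and Dhcr7 were chosen for naming after their values were seen.

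**Figure D3:**
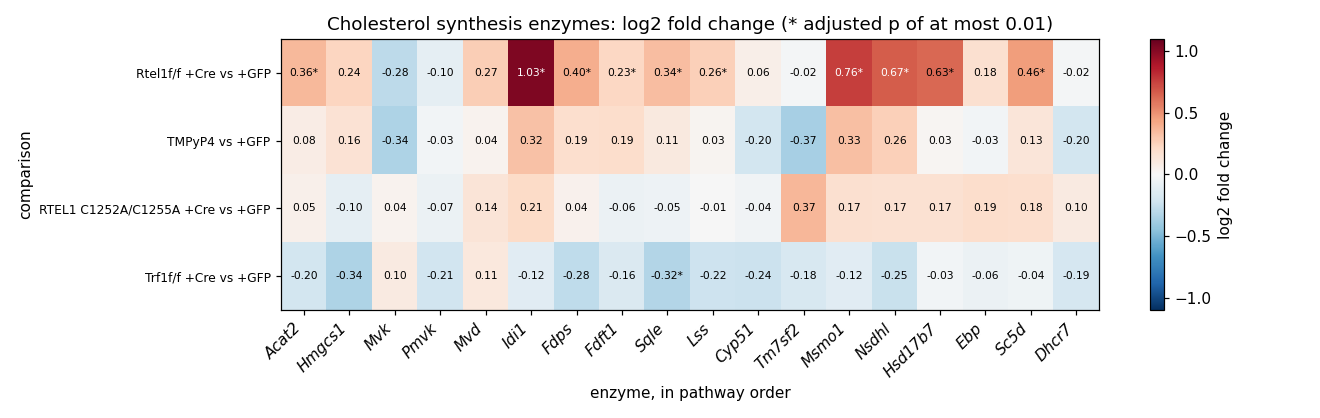
Log2 fold change (colour and number) of 18 cholesterol synthesis enzymes in pathway order (x axis) in the comparisons within a line (y axis), with a star at an adjusted p of at most 0.01. Of the 18, 10 carry a star in Rtel1f/f +Cre against +GFP, 0 after TMPyP4 or in RTEL1 C1252A/C1255A cells, and 1 in Trf1f/f cells.

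After TMPyP4, Insig1 fell and none of the enzymes was called. Insig1 was 139, 142 and 132 CPM after TMPyP4, below all +GFP libraries (163 to 166 CPM), with a log2 fold change of -0.26 ± 0.05 (adjusted p = 7.3e-04). Idi1 was 363, 426 and 426 CPM after TMPyP4, overlapping +GFP replicate 1 at 365 CPM, with a log2 fold change of 0.32 ± 0.14 (adjusted p = 0.0797). Fdft1 was 135, 131 and 132 CPM, above all +GFP libraries, with 0.19 ± 0.06 (adjusted p = 0.0122), which was 0.24 and called without +GFP replicate 1 (adjusted p = 0.00567). For Hmgcs1 (421 to 451 CPM), Sqle (244 to 254) and Lss (79.6 to 83.2) the groups overlapped, with log2 fold changes of 0.16, 0.11 and 0.033. Srebf2 was 494, 294 and 361 CPM, below all +GFP libraries, with -0.66 ± 0.31 (adjusted p = 0.0932).

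In this comparison 0 of the 7 genes were called higher and 1 lower, while 30.0% of all genes were called, 16.6% higher and 13.4% lower. Of the 13 other enzymes, 0 were called by edgeR's quasi-likelihood test or by DESeq2, and 6 had an unadjusted p under 0.05, of which 3 were higher. Over all genes 6935 of 13719 had an unadjusted p under 0.05. The +GFP libraries are shared with the Rtel1 deletion comparison, so likeness between the columns of values is in part set by these 3 libraries.

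Set directly against TMPyP4, Rtel1f/f +Cre cells had higher Idi1 and Insig1. The difference in Idi1 was 0.71 ± 0.14 on the log2 scale (adjusted p = 0.00122) and that in Insig1 0.31 ± 0.05 (adjusted p = 2.9e-04), with no overlap of libraries in either gene. When only these 6 libraries were fitted, the adjusted p of Insig1 was 0.0247. Sqle (0.23 ± 0.07, adjusted p = 0.0182) and Lss (0.23 ± 0.07, adjusted p = 0.0185) were also higher in every +Cre library, but not called. Same-numbered libraries of these 2 groups deviated together, and in the paired fit, which adds the replicate block, Lss was called (adjusted p = 0.00902). Hmgcs1, Fdft1 and Srebf2 overlapped, with differences of 0.083 (95% interval -0.10 to 0.27), 0.038 (-0.087 to 0.16) and -0.10 (-0.76 to 0.56). Thus 2 of the 7 genes were higher and 0 lower, against 15.2% of all genes called, 6.13% higher and 9.09% lower. Of the 13 other enzymes 4 were higher, Hsd17b7 (0.61 ± 0.11), Nsdhl (0.40 ± 0.11), Sc5d (0.32 ± 0.06) and Acat2 (0.28 ± 0.05), and 0 lower. Nsdhl was not called when any of the 6 libraries other than +Cre replicate 1 was left out (adjusted p = 0.0143 to 0.0543).

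In RTEL1 C1252A/C1255A cells none of the 7 genes was called after Cre. By edgeR's quasi-likelihood test 0 of 7 had an adjusted p of at most 0.01, 0 of 7 had an unadjusted p under 0.05, and DESeq2 also called 0. Same-numbered libraries deviated together here, and the paired fit with the replicate block called 0 as well. Idi1 was 436, 547 and 490 CPM in +GFP and 429, 639 and 638 CPM in +Cre, overlapping, with a log2 fold change of 0.21 and a 95% interval of -0.094 to 0.52. Sqle was 226 to 235 CPM in +GFP and 212 to 228 CPM in +Cre (log2 fold change -0.054, interval -0.20 to 0.091). Hmgcs1 was 394 to 405 CPM in +GFP and 334 to 394 CPM in +Cre, so that the groups all but touched, with a log2 fold change of -0.096 (interval -0.28 to 0.091). Srebf2 was 431, 209 and 273 CPM in +GFP and 395, 197 and 232 CPM in +Cre, lower at each replicate number. Its log2 fold change was -0.15 (interval -0.81 to 0.51) in the fit without the replicate block. This interval thus includes the spread between replicate numbers. Fdft1, Insig1 and Lss overlapped, with -0.063, 0.028 and -0.0070. Changes were few over the whole table too, with 1.09% of genes called, 0.525% higher and 0.569% lower, and 1950 genes at an unadjusted p under 0.05. Of the 13 other enzymes 0 were called by either tool, and 2 had an unadjusted p under 0.05, both higher.

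After deletion of Terf1, Sqle fell and 6 of the 7 genes had a log2 fold change below 0. Sqle was 183, 191 and 197 CPM in Trf1f/f +GFP and 149, 164 and 144 CPM in Trf1f/f +Cre, with no overlap and a log2 fold change of -0.32 ± 0.07 (adjusted p = 0.00582). The call was lost in 9 of 14 alternative settings (adjusted p up to 0.0655), among them those without +Cre replicate 1 or 3 (adjusted p = 0.0591 and 0.0655) and without each of the 3 +GFP libraries (0.0114 to 0.039), while the direction held in all of them. Hmgcs1 was 357, 375 and 400 CPM in +GFP and 298, 317 and 279 CPM in +Cre, also without overlap, with -0.34 ± 0.09 (adjusted p = 0.0235). Lss was 106 to 109 CPM in +GFP and 87.8 to 95.4 CPM in +Cre (-0.22 ± 0.07, adjusted p = 0.059). Fdft1 (170 to 182 against 151 to 163 CPM) and Insig1 (133 to 139 against 121 to 126 CPM) did not overlap either, with log2 fold changes of -0.16 and -0.14 that were not called (adjusted p = 0.132 and 0.144). Idi1 and Srebf2 overlapped, with -0.12 and 0.095. Altogether 0 of 7 were called higher and 1 lower, against 3.42% of all genes called, 2.65% higher and 0.765% lower. Of the 13 other enzymes edgeR's quasi-likelihood test called 0 and DESeq2 called 1, and 5 had an unadjusted p under 0.05, all lower. Over all genes 2369 of 13719 had an unadjusted p under 0.05.

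The lines were then compared directly in their response to Cre. Between Rtel1f/f and RTEL1 C1252A/C1255A cells, the log2 change after Cre was higher in Rtel1f/f cells by 0.82 ± 0.20 for Idi1 (adjusted p = 0.00387), by 0.39 ± 0.10 for Sqle (adjusted p = 0.00364) and by 0.29 ± 0.08 for Fdft1 (adjusted p = 0.00888). That is 3 of 7 genes higher and 0 lower, against 25.1% of all genes called, 12.8% higher and 12.3% lower. The count fell to 0 when only these 12 libraries were fitted, and was 0 to 5 when each library was left out in turn. Without Rtel1f/f +GFP replicate 2 the adjusted p was 0.0188 for Idi1, 0.0226 for Sqle and 0.0499 for Fdft1. Without Rtel1f/f +Cre replicate 2 it was 0.0167, 0.0189 and 0.0403. Hmgcs1 (0.34 ± 0.12), Lss (0.27 ± 0.10), Insig1 (0.021 ± 0.07) and Srebf2 (-0.61 ± 0.43) were not called (adjusted p = 0.0395, 0.0343, 0.856 and 0.283). Against Trf1f/f cells, 5 of 7 were higher and 0 lower, with differences of 1.15 ± 0.20 for Idi1, 0.66 ± 0.10 for Sqle, 0.58 ± 0.12 for Hmgcs1, 0.49 ± 0.10 for Lss and 0.39 ± 0.08 for Fdft1 (adjusted p from 3.3e-05 to 0.00105). Here 30.2% of all genes were called, 15.8% higher and 14.5% lower. Insig1 (0.19 ± 0.07, adjusted p = 0.0473) and Srebf2 (-0.86 ± 0.43, adjusted p = 0.122) were not called.

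The control cells of the lines also differed. RTEL1 C1252A/C1255A +GFP cells had more Idi1 than Rtel1f/f +GFP cells, 436 to 547 against 297 to 365 CPM, with a log2 difference of 0.60 ± 0.14 (adjusted p = 0.00166), although neither group had received Cre. Their Srebf2 was 431, 209 and 273 CPM, below all Rtel1f/f +GFP libraries, with a difference of -1.0 ± 0.31 (adjusted p = 0.0116). Idi1 was the only gene called among the 7, 1 higher and 0 lower, against 44.7% of all genes, 22.6% higher and 22.1% lower. Without RTEL1 C1252A/C1255A +GFP replicate 2, or without Rtel1f/f +GFP replicate 2 or 3, Idi1 was not called (adjusted p = 0.0121, 0.0132 and 0.0104). Srebf2 was called without RTEL1 C1252A/C1255A +GFP replicate 1 (adjusted p = 0.00265). Lss overlapped, with 0.19 ± 0.07 (adjusted p = 0.0267), but DESeq2 called it higher (adjusted p = 0.00425). Hmgcs1, Sqle, Insig1 and Fdft1 overlapped as well, with log2 differences of 0.037, -0.0042, 0.028 and 0.070, and were not called. Of the 13 other enzymes Msmo1 (0.52 ± 0.14) and Sc5d (0.26 ± 0.06) were called higher and Tm7sf2 (-0.50 ± 0.14), a sterol reductase, lower, and each call was lost in 3 or 4 of the 6 fits that leave out a library (adjusted p up to 0.041).

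Trf1f/f +GFP cells had more Fdft1 and Lss, and less Sqle, Insig1 and Srebf2, than Rtel1f/f +GFP cells. The log2 differences were 0.61 ± 0.06 for Fdft1 (adjusted p = 3.9e-08), 0.44 ± 0.07 for Lss, -0.28 ± 0.07 for Sqle, -0.27 ± 0.05 for Insig1 and -1.34 ± 0.31 for Srebf2 (adjusted p = 0.00121). Thus 2 of 7 genes were higher and 3 lower, against 54.9% of all genes called, 30.3% higher and 24.5% lower. Sqle was not called without Rtel1f/f +GFP replicate 1 or Trf1f/f +GFP replicate 2 (adjusted p = 0.0111 and 0.0119). Idi1 was 205, 256 and 260 CPM in Trf1f/f +GFP, below all Rtel1f/f +GFP libraries, with -0.43 ± 0.14 (adjusted p = 0.0127). Hmgcs1 overlapped, with -0.047 ± 0.09 (adjusted p = 0.656). The cells come from different MEF lines, so the genotype and the line cannot be told apart here.

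Across the groups the genes did not keep a common order. Hmgcs1, Sqle and Idi1 were highest in Rtel1f/f +Cre and lowest in Trf1f/f +Cre, with group means of 460 and 298 CPM for Hmgcs1, 291 and 152 for Sqle, and 662 and 221 for Idi1. In Hmgcs1, Rtel1f/f +Cre overlapped its neighbour TMPyP4 in this order, and in Idi1 it overlapped RTEL1 C1252A/C1255A +Cre. Fdft1 and Lss were highest in Trf1f/f +GFP (177 and 108 CPM) and lowest in Rtel1f/f +GFP (116 and 79.3 CPM). At this low end Fdft1 overlapped RTEL1 C1252A/C1255A +Cre (117 CPM), and Lss overlapped TMPyP4 (81.1 CPM). Over the 21 libraries Pearson's r of the log2 levels was 0.92 between Hmgcs1 and Sqle, 0.82 between Sqle and Idi1, and 0.69 between Fdft1 and Lss, but -0.50 between Sqle and Fdft1. These are descriptions of libraries that share lines and treatments.

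Srebf2 varied most between replicates. Its SD within groups was 0.40 on the log2 scale, at the 97.3 percentile of the 4691 genes that averaged 50 CPM or more, whose median SD was 0.11, and Idi1 was at 85.1 and Insig1 at 2.66. Such spread was not particular to Srebf2. In Rtel1f/f +Cre, Srebf2 was 357 ± 122 CPM (mean ± SD, n = 3), Srebf1 66.1 ± 31.3, Scap 69.0 ± 21.8 and Nr1h2 14.3 ± 7.73. Other listed genes spread less there, such as Mbtps1 at 247 ± 15.2 CPM. In all 5 Rtel1f/f groups replicate 1 had the highest Srebf2 and replicate 2 the lowest, as in RTEL1 C1252A/C1255A +Cre with 395, 197 and 232 CPM. In Trf1f/f cells the order was another, with 306, 212 and 200 CPM in +GFP and 271, 219 and 277 CPM in +Cre. The second principal component was lowest in replicate 1 and highest in replicate 2 in the same groups except Rtel1f/f +GFP, where replicate 1 was highest (-56.3) and replicate 2 lowest (-74.9). Its part in the level of Srebf2 was not tested.

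Srebf2 ran against its own target gene Idi1 within groups, except in Rtel1f/f +GFP. There both were highest in replicate 1 and lowest in replicate 2, with Srebf2 at 636, 586 and 597 CPM and Idi1 at 365, 297 and 313 CPM. With each group centred on its mean, Pearson's r of the log2 levels over the 21 libraries was -0.84 between Srebf2 and Idi1, -0.66 with Hmgcs1, -0.49 with Insig1, -0.37 with Sqle, -0.32 with Fdft1 and 0.47 with Lss. The replicate order of Srebf2 recurred in the Rtel1f/f groups, so these 21 values are not independent and the r is a description. In Rtel1f/f +Cre the ratio of Idi1 to Srebf2 CPM was 1.29, 3.10 and 1.80 in replicates 1, 2 and 3. In Rtel1f/f +GFP it was 0.574, 0.507 and 0.524, below every other library, the nearest being Trf1f/f +GFP replicate 1 at 0.670. Transcript levels do not show how much SREBP-2 was cleaved.

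**Figure D4:**
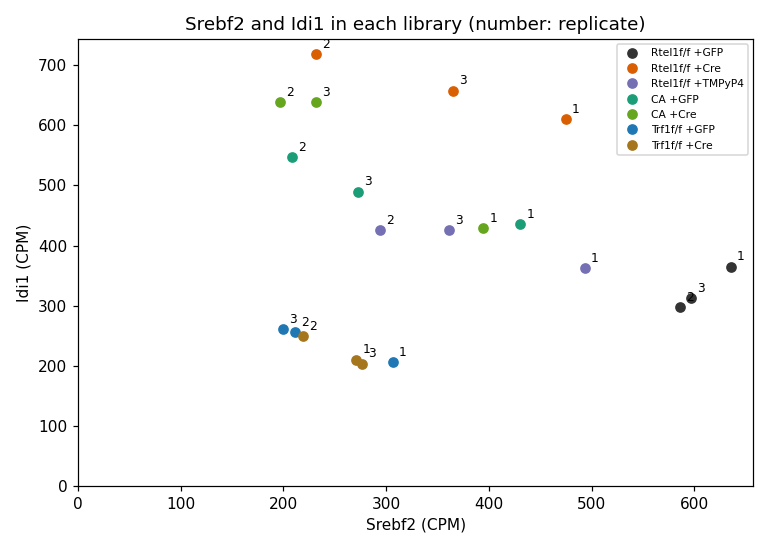
Level of Idi1 (y axis, CPM) against Srebf2 (x axis, CPM) in each of the 21 libraries, coloured by group and numbered by replicate. The Rtel1f/f +GFP libraries lie alone on the right (586 to 636 CPM of Srebf2), and in Rtel1f/f +Cre replicate 2 has the most Idi1 (718 CPM) and the least Srebf2 (232 CPM).

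Among 8 genes that control SREBP processing (Scap, Insig2, Srebf1, Mbtps1, Mbtps2, Rnf139, Erlin1 and Erlin2), 1 was called higher and 1 lower after Rtel1 deletion, both of them Golgi proteases, against 43.0% of all genes called. After Rtel1 deletion Mbtps1, the site-1 protease, went from a mean of 391 to 247 CPM (log2 fold change -0.66 ± 0.08, adjusted p = 1.5e-06) and Mbtps2, the site-2 protease, from 51.8 to 69.0 CPM (0.41 ± 0.10, adjusted p = 0.00159). Mbtps2 was not called without +Cre replicate 2 or +GFP replicate 2 or 3 (adjusted p = 0.0251, 0.0175 and 0.0186). After TMPyP4 they changed by -0.45 ± 0.08 and 0.64 ± 0.10, against the same +GFP libraries, where 30.0% of all genes were called. No other gene of the list was called in these comparisons. Cells of the other lines that had received no Cre were also below Rtel1f/f +GFP in Mbtps1, with log2 differences of -0.55 ± 0.08 in RTEL1 C1252A/C1255A +GFP (adjusted p = 1.0e-05) and -0.78 ± 0.08 in Trf1f/f +GFP (adjusted p = 8.1e-08), while Mbtps2 was not called there. Between +Cre and TMPyP4 0 of the 8 were called by edgeR's quasi-likelihood test or DESeq2, and 2 had an unadjusted p under 0.05. There 15.2% of all genes were called, and 4902 of 13719 had an unadjusted p under 0.05. In RTEL1 C1252A/C1255A and Trf1f/f cells 0 of the 8 were called after Cre by edgeR's quasi-likelihood test or DESeq2, and 0 and 1 had an unadjusted p under 0.05. These comparisons had 1.09% and 3.42% of all genes called, and 1950 and 2369 of 13719 genes under 0.05 unadjusted.

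Abca1, Mylip and Ch25h fell after Rtel1 deletion. Of 7 genes of the nuclear receptor LXR, sterol efflux and storage (Nr1h2, Nr1h3, Abca1, Abcg1, Mylip, Ch25h and Soat1), these 3 were called lower and 0 higher, against 43.0% of all genes called, 22.0% higher and the others lower. Abca1, which exports cholesterol, was 42.2, 56.5 and 45.8 CPM in +GFP and 21.3, 18.4 and 18.3 CPM in +Cre (log2 fold change -1.32 ± 0.13, adjusted p = 2.2e-07). Mylip, a ligase that degrades lipoprotein receptors, changed by -1.46 ± 0.11 (adjusted p = 5.0e-09). Ch25h, cholesterol 25-hydroxylase, had 52, 91 and 95 counts in +GFP and 8, 4 and 5 in +Cre (-3.51 ± 0.29, adjusted p = 2.3e-08). Abcg1, another sterol exporter, averaged 0.0476 CPM in +GFP and 0.149 in +Cre and was not called (adjusted p = 0.0411). After TMPyP4 the same 3 genes were lower, by -0.77 ± 0.13, -0.94 ± 0.10 and -1.36 ± 0.23, where 30.0% of all genes were called. Abca1, Mylip and Ch25h were also lower in RTEL1 C1252A/C1255A +GFP than in Rtel1f/f +GFP cells, by -1.27 ± 0.13, -1.28 ± 0.11 and -3.51 ± 0.29, with 7, 6 and 5 counts of Ch25h. In that comparison 44.7% of all genes were called. Trf1f/f +GFP cells differed, with Abca1 lower (-1.90 ± 0.14), Mylip not called (0.038 ± 0.10) and Ch25h higher (2.55 ± 0.19) than in Rtel1f/f +GFP. Of the 7 genes 2 were called higher and 2 lower there, against 54.9% of all genes called. All of these comparisons share the 3 Rtel1f/f +GFP libraries. Between +Cre and TMPyP4, which do not, Ch25h (-2.15 ± 0.33), Abca1 (-0.55 ± 0.13) and Mylip (-0.52 ± 0.11) were lower and Soat1 (0.20 ± 0.05), which esterifies cholesterol, was higher in +Cre. Over all genes 15.2% were called there. Only Ch25h was called in all 6 fits that leave out a library of this comparison. Abca1 was not called without +Cre replicate 2 or 3 or TMPyP4 replicate 1 or 2 (adjusted p = 0.0164 to 0.0354), Mylip without +Cre replicate 2 or 3 (0.0115 and 0.0183), and Soat1 when any library other than +Cre replicate 3 was left out (0.0146 to 0.0621). Soat1 also lost its call with DESeq2 size factors, upper-quartile factors, no filter or only the groups compared (edgeR's quasi-likelihood test, adjusted p = 0.0102 to 0.104). After Cre in RTEL1 C1252A/C1255A and in Trf1f/f cells 0 of the 7 were called by edgeR's quasi-likelihood test or DESeq2, and 1 and 2 had an unadjusted p under 0.05. These comparisons had 1.09% and 3.42% of all genes called, and 1950 and 2369 of 13719 genes under 0.05 unadjusted.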

How the data were processed

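Messenger RNA of 21 MEF libraries was sequenced as strand-specific single-end reads. Per the labels and the study's methods, the authors trimmed reads with cutadapt 1.9.1, aligned them to mm10 with STAR 2.5.2a and estimated expected counts per RefSeq gene with RSEM 1.3.0. These counts were deposited without normalization, and 0 of them were not whole. The TPM values that the authors deposited beside them served only to rank the genes by abundance.

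Differences were tested with edgeR 4.0.16 under R 4.3.3. Low genes were removed by filterByExpr, library sizes were scaled by TMM, and all 21 libraries entered a single robust quasi-likelihood fit with a coefficient for each group. Tests were two-sided, p was adjusted by Benjamini-Hochberg over 13719 genes, and the threshold was 0.01. Of 24454 genes, 0 had no name. CPM used TMM-scaled library sizes, and correlations and spreads used log2 CPM (prior count 2). An error is either the SD of 3 libraries or the standard error of the fit. A library's total was 32069888 to 51938593 counts, and up to 3 counts were treated as no signal. The scripts were tested on simulated counts. Alternatives were upper-quartile and DESeq2 size factors, other filters on low counts (none, or 10 counts required throughout), fitting only the groups compared, an adjusted p of 0.05, DESeq2 1.42.0, a replicate block and the removal of each library.

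Same-numbered libraries deviated together in RTEL1 C1252A/C1255A +Cre and +GFP (Pearson's r over 11840 genes of 0.42 to 0.86) and in Rtel1f/f +Cre and TMPyP4 (0.41 to 0.76). For these the fit with the replicate block is a paired fit. Calls, errors and intervals are from the fit without it, unless the block is named. In the other comparisons at least 1 number had an r under 0.1. Labels do not say what a replicate number shares.

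The 7 genes are named in every comparison. Of each pathway list, up to 4 called genes with the largest absolute log2 fold change are named. Likeness was Pearson's r with the mean centred log2 CPM of the 7 genes, over 21 libraries, among genes that averaged 5 CPM or more, and the 6 highest are named. The genes and lists were chosen with earlier results of these data known, and some pathway genes are not reported here. Promoters and positions came from RefSeq tables of GRCm38.p6, and figures were drawn with Python 3.11.15 and matplotlib 3.10.9.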

Additional observations from a re-analysis of the deposited data

Results flagged for a closer look

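For 5 of the 7 genes the change after Cre differed between lines by a direct test of the difference (edgeR's quasi-likelihood test, adjusted p of at most 0.01). Between Rtel1f/f and RTEL1 C1252A/C1255A cells the change was higher in Rtel1f/f cells by 0.82 on the log2 scale for Idi1 (adjusted p = 0.00387), 0.39 for Sqle (adjusted p = 0.00364) and 0.29 for Fdft1 (adjusted p = 0.00888). The Fdft1 difference was not called in 14 of 20 alternative settings, DESeq2 size factors and the replicate block among them, and that of Sqle in 8 and of Idi1 in 6. Between Rtel1f/f and Trf1f/f cells the change was higher in Rtel1f/f cells by 1.15 for Idi1, 0.66 for Sqle, 0.58 for Hmgcs1, 0.49 for Lss and 0.39 for Fdft1, and all 5 were called in each of the 20 alternative settings.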

How the results depend on the processing

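Of 952 values under alternatives for single genes, 842 kept their direction and side of the threshold, and 24 reversed. The number of the 7 genes called moved under several settings. With only the groups compared, the count was 1 after Rtel1 deletion, 0 after Terf1 deletion, 1 for Rtel1f/f +Cre against TMPyP4 and 0 for the difference in Cre effect between Rtel1f/f and RTEL1 C1252A/C1255A cells. With the threshold at 0.05 the counts were 2 for TMPyP4, 2 for Terf1 deletion, 4 for +Cre against TMPyP4, 3 for the RTEL1 C1252A/C1255A +GFP cells and 5 for that difference. Over all genes tested the counts at 0.05 were 872 for Terf1 deletion, 3452 for +Cre against TMPyP4 and 5229 for that difference, of 13719. The highest over all alternatives was 5906 for TMPyP4 and 7841 for the RTEL1 C1252A/C1255A +GFP cells. DESeq2 called 4 of the 7 genes for +Cre against TMPyP4 and 3 for RTEL1 C1252A/C1255A +GFP cells. For the latter, upper-quartile factors and the stricter filter each gave 2, and for Terf1 deletion DESeq2 size factors and no filter each gave 0. Leaving out each library gave ranges of 2 to 5 (Rtel1 deletion), 1 to 2 (TMPyP4), 0 to 1 (Terf1 deletion), 2 to 2 (+Cre against TMPyP4), 0 to 2 (RTEL1 C1252A/C1255A +GFP cells), 4 to 5 (Trf1f/f +GFP cells), and, for the differences in Cre effect, 0 to 5 against RTEL1 C1252A/C1255A cells and 5 to 5 against Trf1f/f cells.

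With the replicate block, 2 genes were called after TMPyP4 (Insig1 and Srebf2, both lower) and 0 after Terf1 deletion. Srebf2 was then also lower after Rtel1 deletion (edgeR's quasi-likelihood test, adjusted p = 4.6e-04). Its change after Cre was lower in Rtel1f/f than in Trf1f/f cells (-0.94, adjusted p = 0.00287). Pearson's r of same-numbered libraries was -0.017 to 0.13 for Rtel1f/f +Cre and +GFP, and 0.024 to 0.13 for TMPyP4 and +GFP. For Trf1f/f +Cre and +GFP it was 0.55, 0.36 and -0.10 in replicates 1, 2 and 3. What a replicate number shares is not labelled.

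Directions turned where the log2 fold change was near 0 and, for Srebf2, where it was smaller than its standard error. These Srebf2 values were -0.15 ± 0.31 in RTEL1 C1252A/C1255A cells, -0.10 ± 0.31 against TMPyP4 and 0.095 ± 0.31 after Terf1 deletion. With upper-quartile factors Lss was -0.0032 after TMPyP4 and 0.0095 in RTEL1 C1252A/C1255A cells (0.0017 with the stricter filter), and the Insig1 difference between these lines was -0.010. Sqle in RTEL1 C1252A/C1255A +GFP cells was 0.022 with DESeq2 size factors, 0.013 with no filter and 0.023 with DESeq2. Without single libraries, Insig1 ran from -0.0062 to 0.10 after Rtel1 deletion and from -0.022 to 0.059 in RTEL1 C1252A/C1255A cells, its difference from -0.035 to 0.081, Lss from -0.043 to 0.10 after TMPyP4 and from -0.079 to 0.023 in RTEL1 C1252A/C1255A cells, Srebf2 from -0.51 to 0.17 in those cells, from -0.020 to 0.31 after Terf1 deletion and from -0.36 to 0.15 against TMPyP4, Sqle from -0.025 to 0.079 in RTEL1 C1252A/C1255A +GFP cells, and Hmgcs1 from -0.11 to 0.042 in Trf1f/f +GFP cells. The cause was not tested.

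Over all genes, TMPyP4 called 2466 and 2710 genes without Rtel1f/f +GFP replicates 2 and 3, against 4114. Cre in RTEL1 C1252A/C1255A cells called 0 with only its groups fitted, 416 at 0.05, 335 with DESeq2 and 52 to 149 without single libraries, against 150. Terf1 deletion called 872 at 0.05 and 282 to 377 without single libraries, against 469. For +Cre against TMPyP4 the counts were 933 with only those groups and 3452 at 0.05, against 2088, and for the difference between Rtel1f/f and RTEL1 C1252A/C1255A cells 2195 and 5229, against 3450. Over all alternatives the listed genes called after Rtel1 deletion numbered 5 to 6 of the other enzymes, 1 to 3 of SREBP control, 2 to 4 of fatty acid synthesis, 2 to 5 of sterol efflux and 4 to 5 of the isoprenoid branch, and after TMPyP4 0 to 3, 2 to 3, 1 to 4, 2 to 3 and 1 to 4. For +Cre against TMPyP4 they numbered 1 to 6, 0, 1 to 3, 1 to 5 and 0 to 1, and 0 to 3 fatty acid genes were called after Terf1 deletion. With 3 libraries per group, small changes of Srebf2, whose libraries spread most, could not be resolved.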

Other observations

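The isoprenoid branch leaves the pathway at farnesyl diphosphate and supplies dolichol, ubiquinone and prenylated proteins. Of a list of 6 of its genes (Ggps1, Dhdds, Nus1, Pdss1, Pdss2 and Coq2), 4 were called higher and 1 lower in Rtel1f/f +Cre against +GFP, where 43.0% of all genes were called, 22.0% higher. Pdss1, a subunit of the enzyme that makes the ubiquinone side chain, changed by 1.05 ± 0.13 on the log2 scale (edgeR's quasi-likelihood test, adjusted p = 3.8e-06), from a mean of 9.54 to 19.7 CPM. Nus1, a subunit of the dolichol-making prenyltransferase, changed by 0.76 ± 0.10, Coq2, which attaches the side chain of ubiquinone, by 0.53 ± 0.07, and Ggps1, which makes geranylgeranyl diphosphate, by 0.36 ± 0.07. Dhdds, the partner of Nus1, changed by -0.28 ± 0.06 (adjusted p = 5.4e-04), and is named because it was the only gene of the list that fell. Without +GFP replicate 2 it was not called (adjusted p = 0.0124). After TMPyP4, against the same +GFP libraries, Pdss1 (0.68 ± 0.13), Coq2 (0.48 ± 0.07) and Nus1 (0.47 ± 0.10) were higher and 0 were lower, against 30.0% of all genes called. Without +GFP replicate 2 Pdss1 and Nus1 were not called (adjusted p = 0.0124 and 0.0212), nor Nus1 without +GFP replicate 3 (0.0196). Most of these genes also differed between control cells that had received no Cre. In RTEL1 C1252A/C1255A +GFP against the same Rtel1f/f +GFP libraries, Pdss1 (1.04 ± 0.13), Nus1 (0.69 ± 0.10), Pdss2 (0.51 ± 0.10) and Coq2 (0.25 ± 0.07) were higher and Dhdds (-0.21 ± 0.06) lower, where 44.7% of all genes were called. There Dhdds lost its call with the removal of each of the 6 libraries in turn (adjusted p = 0.0112 to 0.068), nor Coq2 without RTEL1 C1252A/C1255A +GFP replicate 2 or 3 or Rtel1f/f +GFP replicate 2 (0.0117 to 0.0335). Between +Cre and TMPyP4, and after Cre in RTEL1 C1252A/C1255A cells, 0 of 6 were called by edgeR's quasi-likelihood test or DESeq2, and 4 and 1 had an unadjusted p under 0.05. These comparisons had 15.2% and 1.09% of all genes called, and 4902 and 1950 of 13719 genes under 0.05 unadjusted. After Cre in Trf1f/f cells edgeR's quasi-likelihood test called 0, DESeq2 called 1, and 1 had an unadjusted p under 0.05. There 3.42% of all genes were called, and 2369 of 13719 had an unadjusted p under 0.05.

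Of 10 genes of fatty acid synthesis that SREBP-1 controls (Acly, Acaca, Fasn, Elovl6, Scd1, Scd2, Fads1, Fads2, Acss2 and Me1), 2 were higher and 1 lower in Rtel1f/f +Cre, against 43.0% of all genes called, namely Acly (0.44 ± 0.08), which makes cytosolic acetyl-CoA, Me1 (0.34 ± 0.10) and the desaturase Fads1 (-0.44 ± 0.06). Me1 was not called without +Cre replicate 2 or 3 or +GFP replicate 2 or 3 (adjusted p = 0.0246 to 0.0936). Nor was it called with DESeq2 size factors, upper-quartile factors, no filter or only the groups compared (edgeR's quasi-likelihood test, adjusted p = 0.0106 to 0.0297). After TMPyP4 Me1 was higher (0.45 ± 0.10) and Acss2 (-0.39 ± 0.09) and the elongase Elovl6 (-0.32 ± 0.08) were lower, against 30.0% of all genes called. Elovl6 was not called when any library other than +GFP replicate 3 was left out (adjusted p = 0.0114 to 0.0364), Acss2 without replicate 3 of either group (0.0158 and 0.0246) and Me1 without +GFP replicate 2 or 3 (0.0296 and 0.021). Elovl6 (0.52 ± 0.08) and Acly (0.31 ± 0.08) were higher and Fads1 (-0.37 ± 0.06) lower in +Cre than after TMPyP4, against 15.2% of all genes called. Acly was not called there without +Cre replicate 1 or TMPyP4 replicate 2 or 3 (adjusted p = 0.0201 to 0.0318). In Trf1f/f cells Elovl6 (-0.46 ± 0.08) and the desaturase Scd2 (-0.41 ± 0.08) were lower after Cre, against 3.42% of all genes called. Both calls were lost without +Cre replicate 1 (adjusted p = 0.0237 and 0.0227) or +GFP replicate 3 (0.0145 and 0.0184), that of Elovl6 also without +Cre replicate 2 (0.0255) and that of Scd2 without +GFP replicate 2 (0.0134). In RTEL1 C1252A/C1255A cells 0 of 10 were called after Cre by edgeR's quasi-likelihood test or DESeq2, and 1 had an unadjusted p under 0.05. There 1.09% of all genes were called, and 1950 of 13719 had an unadjusted p under 0.05.

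The genes whose levels over the 21 libraries were most like the mean of the 7 were Acat2 (Pearson's r = 0.91), Slc38a4, Cyp51, Cdkn1c, Prtg and Epn2 (each 0.90 to 0.91), among 10232 genes compared. The libraries share lines and treatments, and the r is a description.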
